A study of Mus musculus with 7 samples.

Results

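Chil1 and Chil3 encode chitinase-like proteins, and each was read by 1 of the 22690 probe sets on short-oligonucleotide arrays hybridised with RNA of mouse fetal liver cells. The members are the 2 probe sets that the array annotation pairs with Chil1 alone (1451537_at) or with Chil3 alone (1419764_at). They were selected on their measured signals, among the lowest in cells positive for the surface antigen Sca1 relative to cells negative for it, so that difference is described here and not tested. The 7 arrays cover liver endothelial progenitors labelled Sca1+ (n = 2), progenitors labelled Sca1- (n = 3), progenitors whose title names no fraction, called unsorted here (n = 1), and a layer of feeder cells from fetal liver (n = 1). The title of Sca1- replicate 1 calls its cells endothelial without the word progenitor. The source of all 7 is given only as fetal liver, and neither strain, age, culture time nor pooling of animals is given in the sources used here. The submitters' processing notes name GCOS, an array analysis software, for 3 arrays (Sca1+ replicate 2 and Sca1- replicates 2 and 3) and no tool for the others. The feeder array lies in a table deposited separately under another array platform.

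Chitinase-like proteins share the fold of the glycosyl hydrolases that cut chitin but have lost the residues needed for catalysis, and they act as secreted lectins. Chil3 is a rodent gene whose product is made in large amounts by neutrophil precursors and by macrophages driven by interleukin 4, and the protein can crystallise in inflamed tissue. Chil1 is the mouse counterpart of human CHI3L1, which is made by macrophages, neutrophils, chondrocytes and other cells and is stored, in human neutrophils, in the specific granules. In fetal liver, granulocyte precursors and macrophages are the textbook sources of such transcripts.

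The promoters are shown because the 2 genes had like profiles over the arrays while lying on different chromosomes, and because Chil4, the neighbour of Chil3, has a similar start region and shares a probe set with it. Each window is RefSeq sequence of build GRCm38.p6, 250 bases before the annotated start and 50 from it on, 5′ to 3′ on the gene's own strand. Capitals mark matches on either strand to 4 motifs searched. That of C/EBP factors was TTGCNNAA. That of PU.1 was GAGGAA and the TATA box was TATAAA. The STAT6 motif was a palindrome with TTC on either strand and 4 bases of any kind in the middle. The Chil1 window is chr1:134181906-134182205 on the plus strand, the Chil3 window chr3:106167515-106167814 on the minus strand and the Chil4 window chr3:106219430-106219729 on the minus strand.
Chil1: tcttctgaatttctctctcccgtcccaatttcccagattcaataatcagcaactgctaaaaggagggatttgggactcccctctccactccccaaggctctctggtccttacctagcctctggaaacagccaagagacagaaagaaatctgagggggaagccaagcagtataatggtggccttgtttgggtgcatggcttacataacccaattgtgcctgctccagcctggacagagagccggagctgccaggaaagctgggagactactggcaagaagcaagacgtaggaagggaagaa
Chil3: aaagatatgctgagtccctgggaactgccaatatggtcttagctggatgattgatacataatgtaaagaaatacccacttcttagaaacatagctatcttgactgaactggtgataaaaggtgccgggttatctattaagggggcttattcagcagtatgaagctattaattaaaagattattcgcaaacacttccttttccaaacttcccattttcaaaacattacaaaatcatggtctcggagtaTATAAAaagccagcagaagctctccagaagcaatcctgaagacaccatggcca
Chil4: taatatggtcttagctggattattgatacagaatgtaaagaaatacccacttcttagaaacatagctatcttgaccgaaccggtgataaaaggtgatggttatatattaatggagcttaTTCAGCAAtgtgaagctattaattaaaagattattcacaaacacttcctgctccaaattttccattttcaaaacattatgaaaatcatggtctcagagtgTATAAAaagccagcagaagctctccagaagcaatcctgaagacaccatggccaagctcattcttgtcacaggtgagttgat
The Chil1 window held 0 matches to the 4 motifs, and the Chil3 window held 1, a TATAAA at positions -3 to 3 around the annotated start. The Chil4 window held a TATAAA at -31 to -26 and a match to the C/EBP motif at -131 to -124. Among 32851 promoter windows of this length, 13.6% held TATAAA, 10.8% the C/EBP motif, 28.3% the PU.1 motif and 6.95% the STAT6 motif. The Chil3 and Chil4 windows aligned over 272 columns with 92.3% identity, whereas the best local alignment of the Chil1 and Chil3 windows covered 73 columns with 63.0% identity. Chil1 lies on chromosome 1 beside Chit1, which encodes an active chitinase and had no probe set paired with it alone. Chil3 lies on chromosome 3 between Chia1, which encodes the acidic chitinase, and Chil4.

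Signals are given on a linear scale after each array was set to a trimmed mean of 500, and log2 values were taken with signals under 64 raised to 64. The highest of 27 control probe sets, read here as background, lay between 50.8 and 170 on the 7 arrays. Of 12 markers of the labelled endothelial identity, 4 and 8 exceeded 100 in Sca1+ cells, 7, 5 and 5 in Sca1- cells, 8 in unsorted progenitors and 6 in the feeder layer. The cut-off of 100 lay below the highest control on Sca1- replicate 1 (169.9) and on the unsorted array (170.4), so these counts include signals within the controls' range. Eng read between 184 and 749, Kdr between 141 and 432 and Egfl7 between 106 and 205 over the 7 arrays, while Tek, Tie1 and Erg did not reach 64 on any. On Sca1- replicate 1 Kdr (140.7) and Egfl7 (154.5) lay below that array's highest control and Eng (422.3) above it. The summed signal of the 12 was 893 and 2455 in Sca1+ cells, between 1260 and 1447 in Sca1- cells, 2275 in unsorted progenitors and 1693 in the feeder layer. For Actb, signal at the 3′ end over that at the 5′ end, a ratio that grows with truncated transcripts, was 6.83 and 2.37 in Sca1+ cells, 13.5, 1.87 and 1.91 in Sca1- cells, 1.01 in unsorted progenitors and 1.03 in the feeder layer. Sca1+ replicate 1 and Sca1- replicate 1 therefore stand apart from the rest in this ratio, and they also carried little fibroblast RNA, with summed signals of 9 fibroblast markers of 1905 and 3103 against at least 29016 on every other array.

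Chil1 read 1162 and 82.8 in Sca1+ cells, 25718, 1627 and 1576 in Sca1- cells, 565 in unsorted progenitors and 44.6 in the feeder layer. Both Sca1+ arrays lay below every Sca1- array, but Sca1- replicate 1 stood 16.1-fold above the mean of Sca1- replicates 2 and 3, and Sca1+ replicate 1 stood 14.0-fold above Sca1+ replicate 2. On Sca1+ replicate 2 the signal lay at the level of that array's highest background control, 82.0, and on the feeder array it lay below the highest control, 60.8. In bulk RNA fewer cells of a type and less RNA per cell cannot be told apart, here and in all values that follow.

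Chil3 read 4401 and 101 in Sca1+ cells, 31885, 6358 and 6238 in Sca1- cells, 759 in unsorted progenitors and 17.0 in the feeder layer. The fractions again did not overlap, and the nearest arrays were Sca1+ replicate 1 and Sca1- replicate 3. The 2 Sca1+ arrays differed by 43.8-fold and the Sca1- arrays by up to 5.11-fold.

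**Figure D1:**
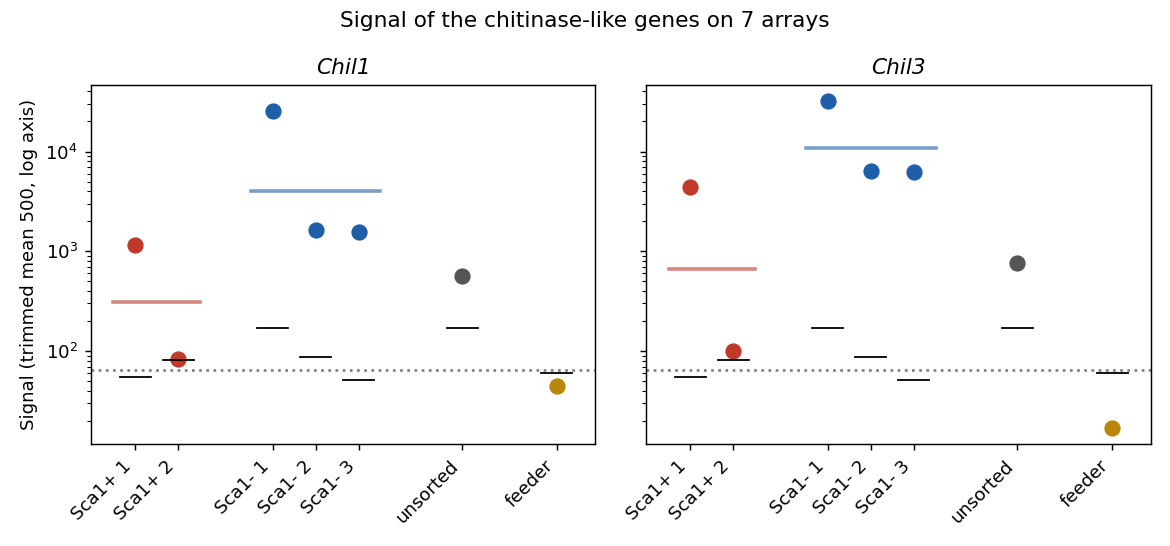
Signal of Chil1 (left) and Chil3 (right) on each of the 7 arrays, on a log axis; points are arrays, coloured bars are geometric means of the 2 Sca1+ and the 3 Sca1- arrays, short black lines are each array's highest background control and the dotted line is the floor of 64. Both Sca1+ arrays lie below every Sca1- array for each gene, Sca1+ replicate 2 lies close to its background control, and the feeder array lies below the floor.

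On the log2 scale Chil1 averaged 8.28 ± 2.69 (SD, n = 2) in Sca1+ and 11.98 ± 2.31 (SD, n = 3) in Sca1- cells, a difference of -3.70 ± 1.51 (SE from the fit across all genes), or 13.0-fold lower in Sca1+. Chil3 averaged 9.38 ± 3.85 (SD, n = 2) in Sca1+ and 13.40 ± 1.35 (SD, n = 3) in Sca1- cells, a difference of -4.02 ± 1.53 (SE), or 16.3-fold lower in Sca1+. These values are those that chose the members and support nothing by themselves. Of 8591 genes tested between the fractions with limma, 0 (0%) had an adjusted p under 0.05, and 292 had an unadjusted p under 0.05, 95 of them higher and 197 lower in Sca1+. The fractions did not overlap, with both Sca1+ arrays below every Sca1- array, for 2 of 2 members, beside 8.45% of the genes tested. The size of the difference rested on single arrays. It ranged from -5.61 to -1.80 for Chil1 and from -6.75 to -1.30 for Chil3 as each sorted array was left out, with the smallest size in each case without Sca1+ replicate 2 and the largest without Sca1+ replicate 1.

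The difference was also taken within each set of arrays that the processing notes define. Among the sorted arrays with no tool named, 1 of each fraction, the difference of Sca1+ minus Sca1- was -4.47 for Chil1 and -2.86 for Chil3. Among the 3 GCOS arrays, with 1 Sca1+ and 2 Sca1- arrays, it was -4.27 for Chil1 and -5.97 for Chil3. These are parts of the contrast that chose the genes, each with 1 Sca1+ array, and the GCOS values rest on Sca1+ replicate 2, where both signals lay near that array's highest control. With the GCOS arrays as a block the difference was -4.36 ± 0.22 (SE) for Chil1 and -4.63 ± 0.65 (SE) for Chil3. That fit had 2 residual degrees of freedom, against 3 with group only, and 1 Sca1+ array in each block, so its SEs are themselves imprecise. In that fit 85 of the 8591 genes (0.989%) passed, all lower in Sca1+, and 0 (0%) passed higher. The 2 sets also differ in the Actb ratio and in fibroblast signal, and the part of these in the differences was not tested.

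The arrays of the same fraction also differed from each other. These arrays are the ones whose means chose the genes, so the differences are a description and not independent of that choice. Between the Sca1+ arrays, replicate 1 minus replicate 2, the log2 difference was 3.81 for Chil1 and 5.45 for Chil3, sizes that depend on signals near background on replicate 2. Between Sca1- replicate 1 and the mean of Sca1- replicates 2 and 3 the difference was 4.01 for Chil1 and 2.34 for Chil3. The medians over all genes tested were -0.05 and -0.14. Genes of the neutrophil granule lists mostly differed in the same directions. The 14 tested genes of the secondary and tertiary granule list had a median of 3.22 between the Sca1+ arrays and 1.5 between the Sca1- arrays, and the 6 of the primary granule list had 4.13 and 0.74. Fibroblast markers differed the other way, with medians of -4.82 and -2.67 over 9 genes. How far the Actb ratio or the cell content of these arrays bears on the differences was not tested.

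**Figure D2:**
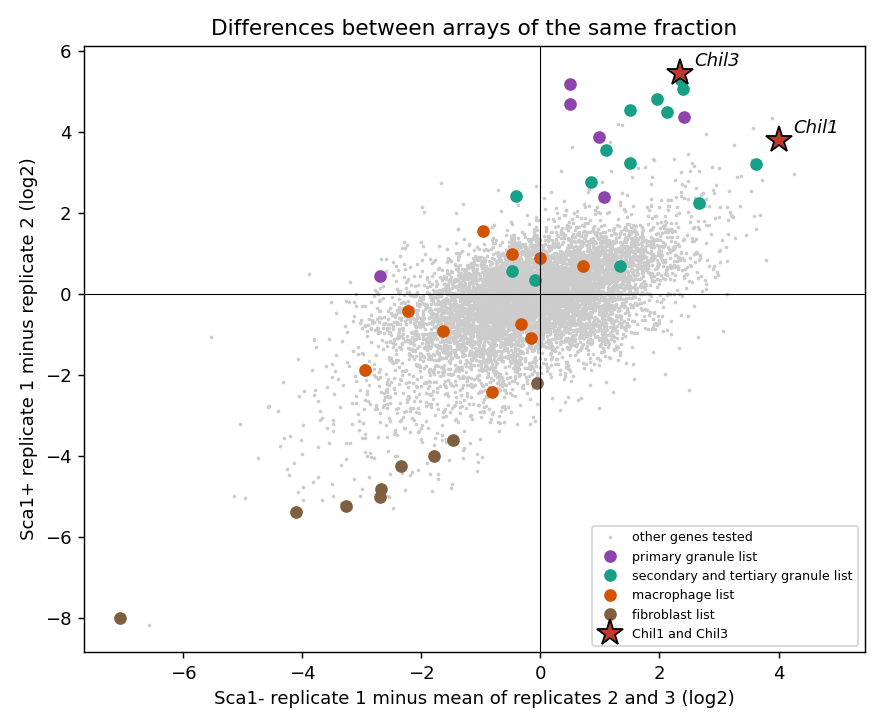
Each point is a gene; the horizontal axis is the log2 signal of Sca1- replicate 1 minus the mean of Sca1- replicates 2 and 3, and the vertical axis that of Sca1+ replicate 1 minus replicate 2. Chil1 lies at 4.01 and 3.81 and Chil3 at 2.34 and 5.45 on the horizontal and vertical axes. Genes of the granule lists lie mostly above 0 on both axes (5 of 6 primary and 11 of 14 secondary and tertiary). All 9 fibroblast markers lie below 0 on both.

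Relative to the unsorted progenitors the Sca1- fraction stood higher and the Sca1+ fraction did not differ beyond its spread. Sca1- minus unsorted was 2.84 for Chil1 and 3.83 for Chil3 on the log2 scale, or 7.14-fold and 14.2-fold, and each of the 3 Sca1- arrays lay above the unsorted array for both genes. Without Sca1- replicate 1 this difference was 3.05 for Chil3 and 1.50 for Chil1, the latter smaller than the pooled SD of 2.45 for Chil1. Sca1+ minus unsorted was -0.87 for Chil1 and -0.19 for Chil3, smaller than the pooled SD of 2.45 and 2.48 within the sorted fractions, since the unsorted array lay between the 2 Sca1+ arrays for both genes. With 1 unsorted array these values have no test. The sign of the second comparison turned for both genes without Sca1+ replicate 2 (1.04 and 2.54) and for Chil3 under median scaling (0.56). The probe set paired with both Chil4 and Chil3 had a smaller Sca1- excess, with geometric means of 2436 in Sca1- cells and 780.6 on the unsorted array. For the Chil3 probe set these were 10814 and 758.6. In Sca1+ cells the geometric means were 225.5 for the shared probe set and 665.3 for that of Chil3.

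The feeder array had the lowest signal of both genes. Because it was at the floor, the differences are lower bounds, but only for the scaling used. With that scaling the unsorted array was at least 8.83-fold higher for Chil1 and at least 11.8-fold higher for Chil3. The Sca1- mean was at least 63.1-fold and 169-fold higher. Under median scaling the log2 difference of unsorted minus feeder was smaller, 2.61 for Chil1 and 3.03 for Chil3, where the main values were 3.14 and 3.57. Of 9751 genes with a signal above 100 on either array, 1548 (15.9%) were at least 2-fold higher on the unsorted than on the feeder array, as both Chil1 and Chil3 were. The 2 arrays come from separately deposited tables and were not tested against each other. The neutrophil markers were low on the feeder array too, with a summed signal over 8 markers of 56225 in unsorted progenitors and 4995 in the feeder layer, whereas 11 macrophage markers summed to 51645 in unsorted progenitors and 47074 in the feeder layer. By group means, the levels of both genes ran from Sca1- at the top through unsorted and Sca1+ to feeder, and of these neighbours unsorted and Sca1+ did not differ beyond the spread of the sorted fractions.

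Other genes of the chitinase family differed less between the fractions, as far as they could be read, and not all in 1 direction. Of 10 family genes listed, 7 had a probe set of their own, and Chil5, Chil6 and Chit1 had none. Chil4, which encodes the closest paralogue of Chil3, read 28.6 and 30.6 in Sca1+ cells, 177, 130 and 80.6 in Sca1- cells, 82.4 in unsorted progenitors and 39.4 in the feeder layer. Its Sca1- signals lay above the highest control of their arrays, while both Sca1+ arrays and the feeder array lay under the floor and the unsorted array below its highest control of 170. A probe set that the annotation pairs with both Chil4 and Chil3, and which was assigned to neither, read 794 and 55.2 in Sca1+ cells, 4991, 1830 and 1582 in Sca1- cells, 781 in unsorted progenitors and 47.0 in the feeder layer. Like the Chil3 probe set it was highest on Sca1- replicate 1 and at or near background on Sca1+ replicate 2 and on the feeder array. Transcripts of close paralogues can hybridise to the same probes, so the Chil3 values are uncertain to that extent.

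The more distant family genes had narrower ranges than Chil1 and Chil3. Ctbs, which encodes chitobiase, a lysosomal enzyme of glycoprotein breakdown, had 409 and 504 in Sca1+ cells, 425, 321 and 334 in Sca1- cells, 390 in unsorted progenitors and 292 in the feeder layer, and the fractions overlapped. Chid1, which encodes a chitinase domain protein, had 411 and 382 in Sca1+ cells, 234, 373 and 326 in Sca1- cells, 446 in unsorted progenitors and 361 in the feeder layer. Ovgp1, which encodes an oviduct glycoprotein, had 75.6 and 127 in Sca1+ cells, 635, 164 and 173 in Sca1- cells, 287 in unsorted progenitors and 68.4 in the feeder layer. Chia1 was under the floor on all 5 sorted arrays and on the feeder array and had 156 on the unsorted array, below its highest control. Apart from the members, 4 family genes were tested (Chil4, Ctbs, Chid1 and Ovgp1). Chil4 and Ovgp1 had both Sca1+ arrays below every Sca1- array, beside 8.45% of all genes tested. Chid1 had both above, beside 12.1%. In either fit 0 of the 4 passed, beside 0% of all genes with group as the only term and 0.989% with the GCOS arrays as a block. Their median difference was -0.30, beside 0.07 over all genes tested.

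**Figure D3:**
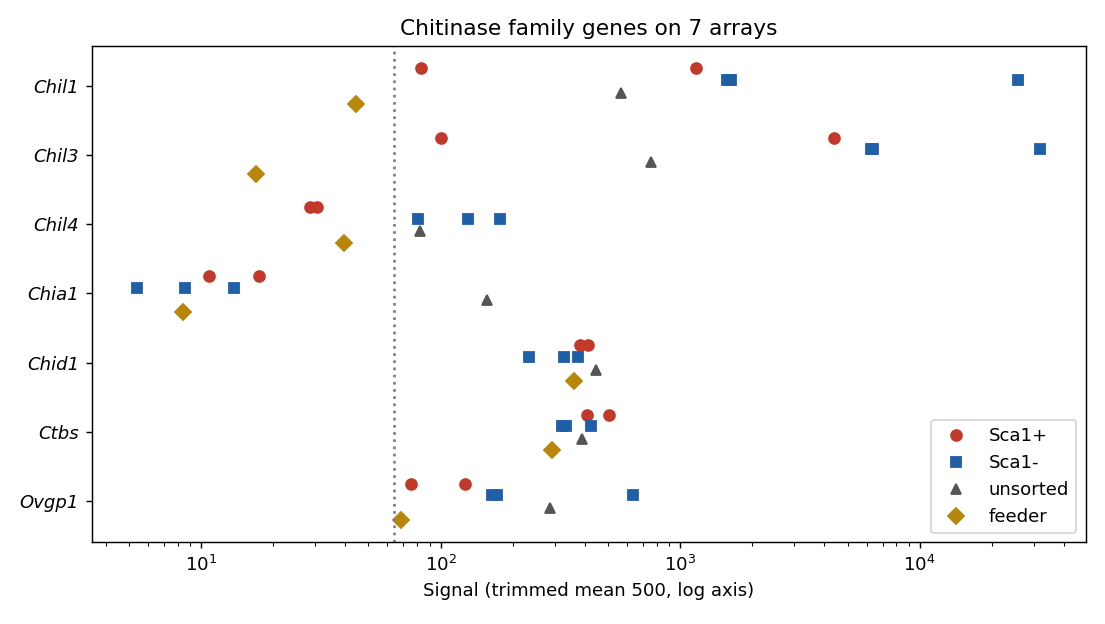
Signal of the 7 chitinase family genes with a probe set of their own on the 7 arrays, on a log axis; circles are Sca1+, squares Sca1-, triangles unsorted and diamonds feeder arrays, and the dotted line is the floor of 64. Points are to be read along a row, since levels of different probe sets are not comparable: Chil1 and Chil3 spread over more than 2 decades, while Ctbs and Chid1 stay between 234 and 504.

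Genes of reported binding partners of the Chil1 protein were read with the same arrays. Lgals3, which encodes galectin 3, had 20273 and 21887 in Sca1+ cells, 41037, 25190 and 21085 in Sca1- cells, 12391 in unsorted progenitors and 14678 in the feeder layer. Cd44, which encodes the hyaluronan receptor, had 2355 and 2971 in Sca1+ cells, 5708, 3900 and 3977 in Sca1- cells, 2828 in unsorted progenitors and 2991 in the feeder layer. Both were thus read on every array, including the feeder array where Chil1 was below background. Tmem219, which encodes a membrane protein that acts with the interleukin 13 receptor, had 2878 and 1088 in Sca1+ cells, 3209, 1104 and 1222 in Sca1- cells, 433 in unsorted progenitors and 409 in the feeder layer. Sdc1, which encodes the heparan sulphate proteoglycan syndecan, had 145 and 1208 in Sca1+ cells, 84.3, 471 and 509 in Sca1- cells, 1204 in unsorted progenitors and 1605 in the feeder layer. Il13ra2, the decoy receptor of interleukin 13, reached at most 132, on Sca1+ replicate 1, and Ptgdr2, a prostaglandin receptor, at most 88.4, on the unsorted array below its highest control. Of the 4 partners tested (Lgals3, Cd44, Tmem219 and Sdc1), Cd44 had both Sca1+ arrays below every Sca1- array, beside 8.45% of all genes tested. For 0 of them both lay above, beside 12.1%. The 4 gave 0 passing genes in either fit, beside 0% of all genes with group as the only term and 0.989% with the GCOS arrays as a block.

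Genes of the 2 neutrophil granule lists were mostly lower in Sca1+ arrays, as the members were. Of 14 tested genes of the secondary and tertiary granule list, 9 had both Sca1+ arrays below every Sca1- array and 0 had both above. Their median difference was -3.0. Of 6 tested genes of the primary granule list, all 6 had both Sca1+ arrays below and the median was -3.18. The shares over all genes tested were 8.45% below and 12.1% above. With group as the only term 0 genes of either list passed in limma, while 8 of the 14 and 5 of the 6 had an unadjusted p under 0.05 and were lower in Sca1+, beside 197 of all 8591. With the GCOS arrays as a block 9 of the 14 and 2 of the 6 passed, all lower in Sca1+, beside 0.989% of all genes tested. Mpo, the peroxidase of primary granules, had 6101 and 167 in Sca1+ cells, 19588, 14278 and 13593 in Sca1- cells, 751 in unsorted progenitors and 88.6 in the feeder layer. The log2 signal of Mpo on Sca1- replicate 1 exceeded the mean of Sca1- replicates 2 and 3 by 0.49, where Chil1 and Chil3 had 4.01 and 2.34. Prtn3, a serine protease of the same granules, had a log2 difference of -3.30 ± 1.21 (SE), Serpinb1a, an inhibitor of such proteases, -3.06 ± 1.32, and Ms4a3 -2.26 ± 0.75. S100a8 and S100a9, whose products form the calcium-binding heterodimer calprotectin, had -2.47 ± 1.0 and -3.07 ± 0.81. Ngp, which encodes a granule protein, had -2.75 ± 1.24, and the lysozyme gene Lyz2, also read in macrophages, -0.46 ± 0.56.

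Markers of the cell types that could carry the transcripts were summed beside these values. The summed signal of 8 neutrophil markers was 116992 and 9407 in Sca1+ cells and between 161046 and 469981 in Sca1- cells, so the 2 groups did not overlap, and 7 or all of the 8 exceeded 100 on each of the 7 arrays. Most of these markers (S100a8, S100a9, Camp, Ngp, Ltf and Mmp8) are also in the secondary and tertiary granule list. Their sum is therefore not separate from the granule values above. The summed signal of 11 macrophage markers was 91116 and 71519 in Sca1+ cells and between 51613 and 58131 in Sca1- cells, the opposite order. Such a sum is set mostly by the brightest probe sets. Gene by gene, 3 of the 10 tested macrophage markers had both Sca1+ arrays above every Sca1- array, beside 12.1% of all genes tested. For 0 of them both lay below, beside 8.45%, and the rest overlapped. Marco, a scavenger receptor gene of some macrophages, was under 64 on all 7 arrays. Markers of eosinophils and mast cells were near background, with summed signals over 8 markers of 419 and 278 in Sca1+ cells and between 164 and 817 in Sca1- cells, and Epx, Mcpt4 and Ms4a2 were under the floor throughout. What part the neutrophil content of the fractions had in the Chil1 and Chil3 values was not tested.

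Genes of alternatively activated macrophages, the other known source of Chil3, differed in both directions. Of 8 tested, 1 had both Sca1+ arrays below every Sca1- array, beside 8.45% of all genes tested, and 3 had both above, beside 12.1%, with a median difference of 0.38. Arg1, the arginase that marks this state, had 9456 and 1810 in Sca1+ cells, 1555, 1505 and 1458 in Sca1- cells, 3410 in unsorted progenitors and 5341 in the feeder layer. The mannose receptor gene Mrc1 had 1937 and 2613 in Sca1+ cells, 334, 2119 and 2268 in Sca1- cells, 3355 in unsorted progenitors and 3022 in the feeder layer. On the feeder array 7 of the 14 measured genes of the list exceeded 100 and 4 were at the floor. Tgm2, a transglutaminase gene, had a difference of 0.75 ± 0.42 (SE) and Il4ra, the interleukin 4 receptor chain, 0.32 ± 0.36. Retnla, which encodes a secreted resistin-like protein and is named after its values were seen, was the 1 gene with both Sca1+ arrays below every Sca1- array. It had 151 and 14.8 in Sca1+ cells, 1296, 426 and 428 in Sca1- cells, 487 in unsorted progenitors and 68.0 in the feeder layer. It was also the 1 gene of the list to pass in the blocked fit (-2.90 ± 0.29, limma adjusted p = 0.0115), beside 0.989% of all genes tested.

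The genes of myeloid transcription factors differed less. Of 10 such genes tested, 2 had both Sca1+ arrays below every Sca1- array, beside 8.45% of all genes tested, and 0 had both above, beside 12.1%. In either fit 0 passed, beside 0% of all genes with group as the only term and 0.989% with the GCOS arrays as a block. The median difference was -0.72. Spi1, which encodes PU.1, had 931 and 3168 in Sca1+ cells, 2044, 4095 and 4397 in Sca1- cells, 2443 in unsorted progenitors and 2538 in the feeder layer. Cebpb and Cebpd, which encode C/EBP factors of later myeloid stages, had differences of -0.58 ± 0.46 (SE) and -0.91 ± 0.94, and Irf8, which encodes a monocyte factor, 0.71 ± 0.51. Cebpe, the C/EBP gene of granule formation, had no probe set paired with it alone.

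The genes whose profiles were most like those of the members were found by the root mean square difference of log2 signal, each gene centred on its mean over the 6 arrays of the larger table. Among 9222 genes the nearest to Chil1 were Ltb4r1, a leukotriene receptor gene of neutrophils (0.44), Ceacam10 (0.44), Tmem40 (0.47), G0s2, which encodes a lipase inhibitor (0.49), Trem3, a myeloid receptor gene (0.52), Cd3d, which encodes a chain of the T-cell receptor complex (0.52), Asprv1 (0.59), the transcription factor gene Nfe2 (0.62), Cd177, a neutrophil surface antigen gene (0.67), and Camp, which encodes the cathelicidin (0.67). Ltb4r1 had 1090 and 70.8 in Sca1+ cells, 17939, 1164 and 1091 in Sca1- cells, 206 in unsorted progenitors and 6.40 in the feeder layer. Ceacam10 had 1198 and 19.4 in Sca1+ cells, 24022, 886 and 786 in Sca1- cells, 274 in unsorted progenitors and 17.2 in the feeder layer. These genes share with Chil1 the high signal on Sca1- replicate 1 and the low one on Sca1+ replicate 2.

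The nearest to Chil3 were Camp (0.28), Serpinb1a (0.54), Wfdc21 (0.59), the lactoferrin gene Ltf (0.59), Stfa3, which encodes a stefin protease inhibitor (0.61), Nfe2 (0.65), the siderophore-binding lipocalin gene Lcn2 (0.66), Mpo (0.66), the haptoglobin gene Hp (0.71) and Ltb4r1 (0.77). Camp had 10013 and 296 in Sca1+ cells, 85016, 17391 and 15077 in Sca1- cells, 3120 in unsorted progenitors and 213 in the feeder layer. It followed Chil3 more closely than any other gene. Genes of the 2 granule lists made up 6 of the 10 nearest to Chil3 and 2 of the 10 nearest to Chil1. These lists held 6 and 14 measured genes, beside 9222 genes ranked. The ranking used the sorted arrays whose means chose the members, which favours genes low in Sca1+, so these counts are not independent of that choice. In both sets of 10 were 3 genes (Camp, Nfe2 and Ltb4r1). Chil1 and Chil3 differed from each other by 0.81, which placed Chil3 at rank 22 among the genes nearest to Chil1 and Chil1 at rank 11 among those nearest to Chil3, where the median gene differed by 2.55 from Chil1 and 2.76 from Chil3. With 6 arrays, 1 or 2 of which set most of the profile, this likeness is a description. Without Sca1- replicate 1, 3 of the 10 nearest to Chil1 and 9 of those nearest to Chil3 were kept, and without Sca1+ replicate 2, 6 and 4 were kept.

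**Figure D4:**
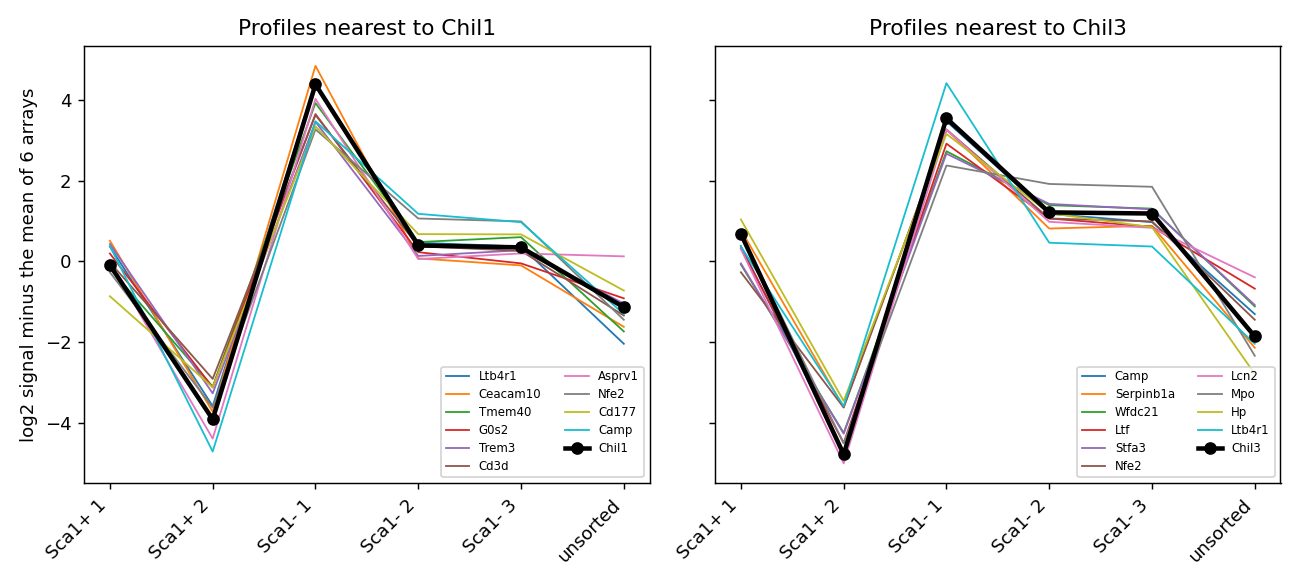
Log2 signal of Chil1 (left) and Chil3 (right), in black, with the 10 genes of most like profile in colour, each centred on its mean over the 6 arrays of the larger table. All profiles have their lowest point on Sca1+ replicate 2 and their highest on Sca1- replicate 1, and on Sca1- replicates 2 and 3 Chil1 lies at 0.40 and 0.35 and Chil3 at 1.21 and 1.19.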

How the data were processed

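RNA of 7 fetal liver samples was measured on single-colour arrays. Each deposited table lists 1 linear signal intensity for a probe set, and every array had a trimmed mean of 250.1. The submitters' processing notes name GCOS for 3 arrays. The software of the others, and the background correction of all 7, are not given in these sources. Titles gave the groups, and samples with unnumbered titles were called replicate 1. Whether samples were separate cultures or animals is not stated, so the spread between them, and any p, may be technical. Among the arrays 0 pairs were identical.

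Signals were rescaled to a 2% trimmed mean of 500, raised to 64 where lower, and put on the log2 scale. The platform annotation paired 20380 probe sets with 1 gene, 691 with several and 1555 with none, and 64 were controls. For each of 12393 genes 1 probe set stood for the gene, the one with the highest log2 mean in the larger table. The test between fractions covered the 8591 genes whose signal passed 100 in 2 or more of 5 sorted samples, by limma 3.58.1 (R 4.3.3, lmFit, then eBayes with a trend) with Benjamini-Hochberg adjustment at 0.05. Chil1 and Chil3, and the lists beside them, were chosen with earlier results of these data known. Named genes followed a rule: the 10 genes of smallest root mean square difference from each member, all measured family genes and binding partners, and up to 4 of highest mean from each other gene list. Cell type markers at the floor (Tek, Tie1, Erg, Marco, Epx, Mcpt4 and Ms4a2), those read above 100 on all 7 arrays (Eng, Kdr and Egfl7) and Retnla were named after their values were seen. The fit was tested on simulated data. The number of arrays limits the precision. Alternatives were other scalings, floors of 16 and 128, other filters, blocks and leaving out each sorted array. Promoter windows are RefSeq sequence (GRCm38.p6), aligned with Biopython, and all 3 genes shown matched by symbol.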

Additional observations from a re-analysis of the deposited data

How the results depend on the processing

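The differences of Chil1 and Chil3 kept their sign in 77 of 80 alternative values. The exceptions were Sca1+ minus unsorted without Sca1+ replicate 2 (1.04 for Chil1 and 2.54 for Chil3) and for Chil3 under median scaling (0.56). Many of these signs were fixed beforehand, so the count does not measure robustness. Each gene had 1 probe set, so averaging probe sets returned the main value. Leaving out an array could not turn Sca1+ minus Sca1- or Sca1- minus unsorted, because the arrays compared did not overlap. As each sorted array was left out, the difference of Sca1+ minus Sca1- ranged from -6.75 to -1.30 for Chil3 and from -5.61 to -1.80 for Chil1, that of Sca1+ minus unsorted from -2.92 to 2.54 for Chil3 and from -2.77 to 1.04 for Chil1, and that of Sca1- minus unsorted from 3.05 to 4.23 for Chil3 and from 1.5 to 3.52 for Chil1. Other scalings, floors and blocks gave Sca1+ minus Sca1- values from -4.38 to -3.39 for Chil1 and from -4.63 to -3.82 for Chil3. Unsorted minus feeder lay between 2.14 and 3.67 for Chil1 and between 2.57 and 5.48 for Chil3 over other floors and scalings. The count of genes called between the fractions was 0 in the main design, 1 without the filter on low signal (Smad9, named after its value was seen), 85 with the GCOS arrays as a block and 80 with a replicate block, and 0 as each array was left out. With the replicate number as a block, a fit with 1 residual degree of freedom, the difference was -4.38 ± 0.44 (SE) for Chil1 and -4.42 ± 0.57 (SE) for Chil3. No Sca1+ array was numbered 3, so these differences equal those without Sca1- replicate 3 and are not a separate alternative. Across genes, deviations from the group means had r = 0.57 between the replicates 1, 0.48 between the replicates 2 and 0.52 between Sca1+ replicate 2 and Sca1- replicate 3. With 2 Sca1+ arrays these deviations are equal and opposite by construction. The r values are thus not separate observations and cannot decide whether same-numbered samples belong together. The numbers were therefore not taken to pair the samples. Among the 10 nearest genes, an alternative added after seeing the data kept 3 for each member with Pearson correlation in place of the root mean square difference, 7 and 6 with the lower floor, 7 and 9 with the higher floor and 8 and 8 with quantile normalization, for Chil1 and Chil3 in that order. The causes were not tested. Signals near the background controls, as on Sca1+ replicate 2 and the feeder array, limit the size of these differences.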
